A study of Mus musculus with 20 samples.

Results

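The SR proteins, hnRNPs and related splicing regulators were taken here as the probe sets whose single gene symbol begins with Srsf, Hnrnp, Luc7l, Tra2, Rbm, Sf3 or Prpf. By name there were 196 such probe sets of 77 genes. A probe set was kept if 4 or more of the 20 arrays had its signal at or above their 40th percentile. This left 179 probe sets of 75 genes among 14379 tested probe sets of 8159 genes. The 179 comprised 28 probe sets of 9 Srsf genes, 3 of 2 Tra2 genes, 10 of 3 Luc7l genes, 48 of 18 Hnrnp genes, 49 of 24 Rbm genes, 20 of 9 Sf3 genes and 21 of 10 Prpf genes. The 17 that were left out included every probe set of Rbm43 and Rbm47. Of the 179, 168 reached the filter level on all 20 arrays, and the closest to the limit was Hnrnpab 1431349_at on 6 arrays, with signals of 40 to 174. Just outside it were Hnrnpa1 1455740_at (22.9 to 130), Rbm25 1425522_at (26.3 to 115) and 1425524_at (14.2 to 149.5), and Rbmx 1437847_x_at (17.1 to 151), each on 2 arrays.

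SR proteins carry an RNA-recognition domain and a domain rich in arginine and serine, and most often promote the use of the exons they bind. hnRNPs coat nascent transcripts and often oppose them, so that the balance of both sets which exons enter an mRNA. SF3 proteins belong to the U2 snRNP that marks the branch point, most PRPF proteins to the tri-snRNP and the later spliceosome, with Prpf39 and Prpf40b tied to the U1 snRNP instead, and Luc7-like proteins to the U1 snRNP that marks the 5' splice site. Many of these genes are themselves alternatively spliced, and in several a version with a premature stop codon is made and then degraded, by which the protein limits its own level. In muscle, splicing factors set the isoforms of many contractile proteins as myoblasts turn into myotubes.

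The samples were myotubes of C2C12, an established mouse myoblast line, so a single cell line in culture stands for muscle. All were differentiated for 96 h in 0.5% horse serum. They were then kept for 2 h with H2O2 at 1, 10, 100 or 1000 µM, or with none (untreated). There were 4 arrays per group and 1 Affymetrix Mouse Genome 430A array per sample. H2O2 is a membrane-permeant oxidant. The title of 1 array at 1 µM misspells the unit and was read as µM, and 1 array at 10 µM has no replicate number and is called replicate 1. The design text calls the 4 samples of a dose independent, but no label says whether each came from its own culture. The p-values therefore speak of the variation among these 20 arrays, part or all of which may be technical. The array reads RNA of a whole dish, in which fewer cells of a type and less RNA per cell cannot be told apart.

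All 14 myotube marker genes measured reached the filter level on every untreated array, while 4 of 5 leukocyte markers, Ptprc, Cd68, Itgam and Cd3e, reached it on none. Summed signals of 4 quiescent reserve cell markers lay at 972 to 1296 at 1000 µM, against 1456 to 1861 in untreated myotubes, and their 100 µM arrays had 861 to 1321. Of the 4, Spry1 was called lower at both doses, and Pax7 reached the filter level on no array. Summed signals of 9 markers of cycling cells were 13125 to 15284 at 1000 µM and 12044 to 13724 untreated, with 1 called higher (Pcna) and 1 lower (Mki67). Of 7 fibroblast markers 4 reached the filter level on all untreated arrays, with summed signals of 16424 to 23794 at 1000 µM and 13233 to 23514 untreated. Leukocyte markers summed to 279 to 323 at 1000 µM and 199 to 423 untreated. Myotube markers summed to 108437 to 114703 at 1000 µM and 82527 to 104527 untreated, with Tnnt3 called higher. The part of these cells in the results below was not tested. RNA degradation was read from the log2 ratio of 3' to 5' controls for beta-actin and Gapdh, which moved by at most 0.0803 from untreated at any dose. The 5 arrays numbered 1 stood apart from the other 15 on the first principal component (28.2% of variance), with 1 such array in every dose. Over all probe sets, the median log2 signal at 1000 µM fell by 0.203 relative to untreated, although the trimmed means of the arrays are equal.

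After 2 h at 1000 µM, 10 member probe sets rose and 17 fell relative to untreated (limma, adjusted p under 0.05), against 2.46% higher and 8.48% lower among all 14379 tested. As shares of the 179 this was 5.59% and 9.5%, and both directions together made 15.1% of members and 10.9% of all. Members were brighter than all tested (median of mean log2 signals 9.55 against 8.74). They also varied less within doses (median residual SD 0.189 against 0.206). The shares were not matched for either, and the part of this in them was not tested. The rises were of Srsf3, Srsf11, Tra2b, Hnrnpdl, Hnrnpa2b1, Rbm39 and Sf3b5, and the falls of Srsf3, Srsf10, Luc7l2, Hnrnpa1, Hnrnpa2b1, Hnrnpdl, Hnrnpul2, Rbm5, Rbm12, Rbm26, Rbmx and Rbms1. Srsf3, Hnrnpdl and Hnrnpa2b1 stand in both groups, with different probe sets. The median log2 difference was -0.03 over the members and -0.07 over all tested. With the replicate number as a block the counts were 16 higher and 26 lower, and in replicates 2 to 4 alone 16 and 25. Centring each array on its median, which adds 0.203 to every difference at 1000 µM, gave 34 higher and 8 lower, and quantile normalization 6 and 10. With median centring the median difference was 0.17 over the members and 0.13 over all tested, and with quantile normalization 0.01 over both. Shares over all tested under these other settings are not given, here or for the families and lists below. Their counts therefore do not set members apart from other genes. The 10 rises became 3 without untreated replicate 2 or without 1000 µM replicate 1, 4 without untreated replicate 3, 5 without 1000 µM replicate 2, and 6 without replicate 4 of either group; the 17 falls became 10 without 1000 µM replicate 3.

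**Figure D1:**
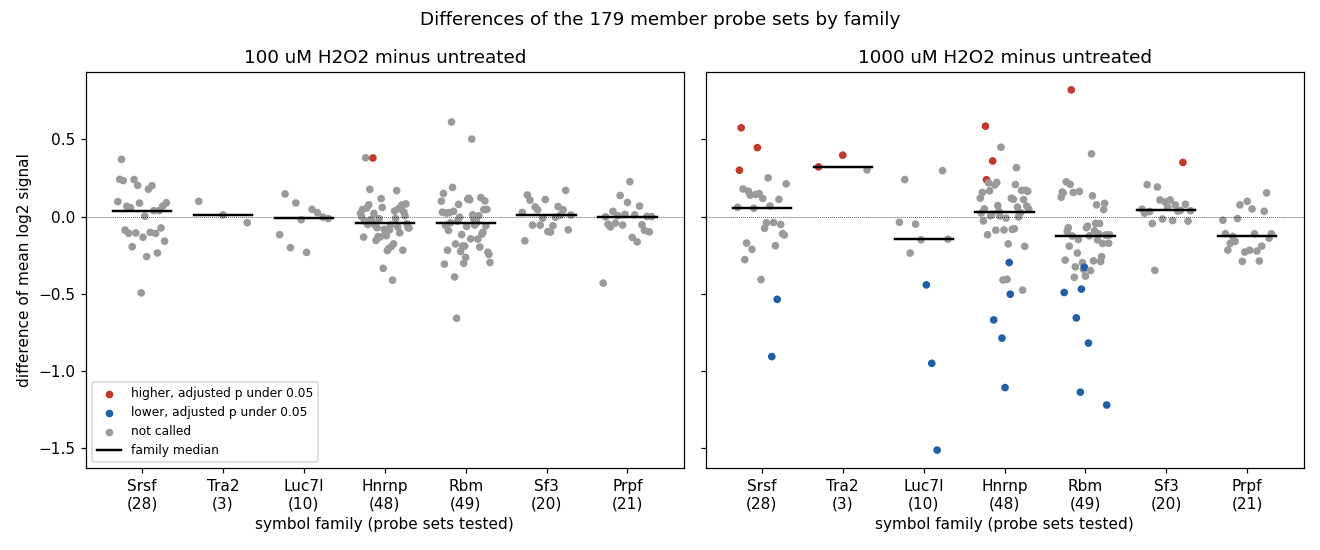
Difference of mean log2 signal from untreated for each of the 179 member probe sets (points), at 100 µM (left) and 1000 µM (right), by symbol family, with family medians as lines and calls in colour. At 1000 µM the members ran from -1.51 to 0.82 with 27 called, and at 100 µM from -0.66 to 0.61 with 1 called.

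By family at 1000 µM, 3 Srsf probe sets were called higher and 2 lower of 28, 2 and 0 of 3 for Tra2, 0 and 3 of 10 for Luc7l, 3 and 5 of 48 for Hnrnp, 1 and 7 of 49 for Rbm, 1 and 0 of 20 for Sf3, and 0 and 0 of 21 for Prpf. Family medians of the log2 difference were 0.06 for Srsf, 0.32 for Tra2, -0.15 for Luc7l, 0.03 for Hnrnp, -0.12 for Rbm, 0.04 for Sf3 and -0.13 for Prpf. With quantile normalization the Luc7l and Rbm medians turned to 0.02 and 0.01 and the Srsf and Hnrnp medians to -0.02 and -0.01. Each of the 7 families had a median above 0 with median centring, where Srsf had 7 higher and 1 lower, Tra2 3 and 0, Luc7l 1 and 1, Hnrnp 11 and 3, Rbm 6 and 3, Sf3 5 and 0, and Prpf 1 and 0. With the replicate block Srsf had 3 and 3, Tra2 3 and 0, Luc7l 0 and 3, Hnrnp 7 and 7, Rbm 2 and 12, Sf3 1 and 0, and Prpf 0 and 1. None of the 7 pairs of counts was tested against another.

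At 100 µM, 1 member rose (0.862% of all tested) and 0 fell (0.355% of all). Of the 179, 14 had an unadjusted limma p under 0.05, 8 higher and 6 lower, against 1604 of all 14379 tested. With the replicate block 3 members rose and 1 fell, and in replicates 2 to 4 alone 3 and 2. At 10 µM and at 1 µM no member passed limma's adjusted test, against 0.00695% and 0% of all tested. Unadjusted p-values were under 0.05 for 9 members at 10 µM, 4 higher and 5 lower, against 717 of all 14379 tested. At 1 µM this held for 19 members, 4 higher and 15 lower, against 960 of all. In replicates 2 to 4 alone, 4 members were called at 1 µM, all lower, namely Hnrnpdl 1424252_at, Hnrnpa1 1436549_a_at, Luc7l2 1436767_at and Prpf4b 1455696_a_at, named here after their values were seen. With array weights 1 was called at 10 µM and 3 at 1 µM. Between 1000 and 100 µM, 1 member was higher (0.744% of all) and 9 lower (3.6% of all) at 1000 µM, together 5.59% of members against 4.35% of all. With the block these became 5 and 13, and in replicates 2 to 4 alone 7 and 12; the 1 became 3 without array 1 at 100 µM and 0 without array 2, 3 or 4 of either dose. An F-test over the 5 doses called 22 members (12.3%, against 8.01% of all), 41 with the block and 52 in replicates 2 to 4 alone; without 1000 µM replicates 2, 3 or 4 the 22 became 14, 13 and 14. Of the 22, 3 passed no single comparison, namely Srsf3 1416152_a_at (adjusted p = 0.0172), Rbm39 1442745_x_at (0.0427) and Tra2a 1454725_at (0.00676), also named after the fact.

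Without any model, 3 members had all 4 arrays at 1 µM above all 4 untreated ones (1.59% of all tested did) and 6 had them all below (2.19% of all). At 10 µM these counts were 2 (1.4% of all) and 3 (2.67%), at 100 µM 6 (3.79%) and 9 (5.19%), and at 1000 µM 18 (6.66%) and 22 (13.8%). Between 1000 and 100 µM, 12 members lay wholly higher (4.44% of all) and 16 wholly lower (10.4%) at 1000 µM.

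**Figure D2:**
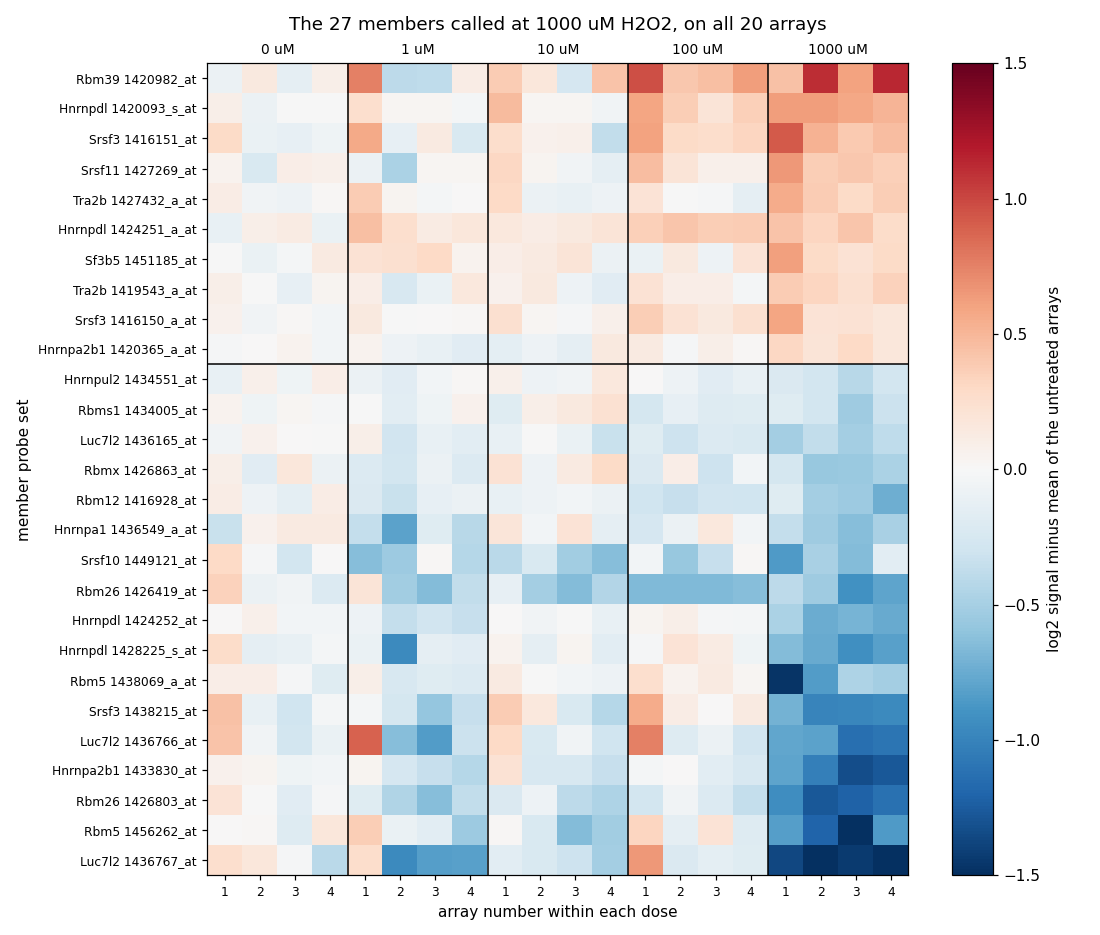
Log2 signal of the 27 members called at 1000 µM on each of the 20 arrays, minus the mean of the 4 untreated arrays; doses run from 0 (untreated) to 1000 µM, and the 10 rises stand above the 17 falls. The change stands mostly in the 4 arrays at 1000 µM. Of the 27, 8 lie wholly to the same side of untreated at 100 µM as well. Srsf3 1416150_a_at, Hnrnpdl 1420093_s_at and 1424251_a_at and Rbm39 1420982_at lie above, and Rbm12, Rbm26 1426419_at, Rbms1 and Luc7l2 1436165_at below. The 27 were picked against the same 4 untreated arrays, so part of this overlap is built in. Over all tested, 3.79% lay wholly above untreated at 100 µM and 5.19% wholly below.

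Among the SR proteins, Srsf3 encodes the smallest member, which binds pyrimidine-rich RNA and also helps export mRNA. Its 6 tested probe sets did not move together. Probe set 1416150_a_at, the brightest, had signals of 3456, 2637, 2659 and 2580 at 1000 µM, against 2394, 2209, 2319 and 2220 in untreated myotubes. All 4 treated arrays lay above all 4 untreated ones, and the difference was 0.30 (log2, SE 0.09, adjusted p = 0.0322, n = 4 per group). Probe set 1416151_at had 758, 574, 522 and 550 at 1000 µM and 486, 373, 367 and 382 untreated, again without overlap (0.57, SE 0.17, adjusted p = 0.0304). Probe set 1438215_at went the other way, with 208, 171, 172 and 175 at 1000 µM and 459, 315, 275 and 333 untreated. It fell by 0.91 (SE 0.18, adjusted p = 0.0025), and its 100 µM arrays, at 500, 365, 340 and 371, overlapped the untreated ones. The other 3 differed by 0.18 to 0.25, none called. The rise of 1416150_a_at lost its call when array 2, 3 or 4 of the untreated or array 1 of the 1000 µM group was dropped (adjusted p = 0.0525 to 0.0979), and that of 1416151_at when any of these or array 2 at 1000 µM was dropped (0.0578 to 0.0931). With quantile normalization 1416150_a_at was not called (0.22, adjusted p = 0.192), nor in the fit of its 2 groups alone (0.0842). At 100 µM it differed by 0.24 (adjusted p = 0.254), which passed with the replicate block (0.0438). The fall of 1438215_at was called in every alternative fit run.

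Tra2b encodes an SR-like protein that binds GAA-rich exonic enhancers. Its probe set 1427432_a_at had signals of 2565, 2256, 2113 and 2242 at 1000 µM, against 1881, 1675, 1645 and 1758 untreated, a difference of 0.40 (SE 0.11, adjusted p = 0.0202). Its other probe set, 1419543_a_at, had 2138, 2061, 1951 and 2091 at 1000 µM and 1752, 1639, 1517 and 1691 untreated (0.32, SE 0.09, adjusted p = 0.0264). In both, every treated array lay above every untreated one. Probe set 1427432_a_at was also higher than at 100 µM, where it had 1996, 1736, 1712 and 1582 (0.39, SE 0.11, adjusted p = 0.0415), the single member called higher in that comparison. The close relative Tra2a, probe set 1454725_at, had 1157, 1191, 1067 and 1148 at 1000 µM and 997, 838, 937 and 934 untreated, without overlap, and did not pass (0.30, SE 0.10, adjusted p = 0.0679). It passed with the replicate block (adjusted p = 0.0152), in replicates 2 to 4 alone (0.0142) and with median centring (0.00755). The rise of 1427432_a_at lost its call when untreated array 2 or 3, or array 1 at 1000 µM, was dropped (adjusted p = 0.0509 to 0.0599). That of 1419543_a_at lost it with untreated array 2 or 3, or array 1, 2 or 4 at 1000 µM, dropped (0.0576 to 0.0715). With quantile normalization neither was called (0.071 and 0.0769). Against 100 µM, dropping any 1 of the 8 arrays other than array 1 at 100 µM ended the call (0.0532 to 0.135), as did quantile normalization (0.106) and testing without a filter (0.0591).

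Srsf11, an SR-related protein, had signals of 436, 359, 368 and 356 at 1000 µM and 289, 237, 299 and 293 untreated at probe set 1427269_at (0.45, SE 0.13, adjusted p = 0.0359). Its brighter probe set 1452371_at differed by 0.11 and was not called. Srsf10, which acts as a splicing repressor once dephosphorylated in heat-shocked cells, had 240, 307, 275 and 386 at 1000 µM and 528, 424, 355 and 433 untreated at probe set 1449121_at. These groups overlapped, and the fall was by 0.54 (SE 0.17, adjusted p = 0.0472), while its brightest probe set 1423982_at differed by 0.14. The Srsf11 call was lost with any 1 of the 8 arrays other than untreated array 3 dropped (adjusted p = 0.0555 to 0.115). The Srsf10 call was lost with untreated array 1, 2 or 4, or array 1, 2 or 3 at 1000 µM, dropped (0.0847 to 0.144), and in replicates 2 to 4 alone, where the difference was -0.33 (0.194). It was not called with median centring (-0.33, 0.16), quantile normalization (0.19), array weights (-0.34, 0.0772), its 2 groups alone (0.0686) or no filter (0.0701), and without a filter the Srsf11 call ended too (0.0569). The brightest probe sets of Srsf1, Srsf2, Srsf4, Srsf5, Srsf6 and Srsf9 differed by between -0.19 (Srsf4 1448778_at) and 0.16 (Srsf9 1417727_at), none called. Srsf5 1423130_a_at had 3609, 3376, 3434 and 3685 at 100 µM and 2770, 3048, 3275 and 2868 untreated, without overlap, and was not called (0.24, SE 0.07, adjusted p = 0.137).

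Hnrnpdl encodes a close relative of the AU-rich RNA-binding protein Hnrnpd, and in mammals the protein is known to act on the splicing of its own transcript. Of its 6 tested probe sets, 2 rose and 2 fell at 1000 µM. Probe set 1424251_a_at, the brightest, had 4280, 3959, 4233 and 3858 at 1000 µM, against 2950, 3389, 3451 and 2958 untreated. Its 100 µM arrays had 4064, 4224, 4096 and 4153, also above every untreated one. It was the single member that rose at 100 µM (0.38, SE 0.07, adjusted p = 0.0102), and at 1000 µM it stood higher by 0.36 (SE 0.07, adjusted p = 0.00401). In the fit of the 100 µM and untreated arrays alone the call at 100 µM ended (adjusted p = 0.0682), and with quantile normalization that at 1000 µM (0.23, 0.0552). Probe set 1420093_s_at had 1506, 1512, 1462 and 1393 at 1000 µM and 1041, 923, 975 and 978 untreated (0.58, SE 0.10, adjusted p = 0.00097). At 100 µM it differed by 0.38, which did not pass (0.0857) and did with the replicate block (0.00277). Treated and untreated arrays of both probe sets lay fully apart.

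Probe set 1424252_at of Hnrnpdl had 829, 689, 713 and 687 at 1000 µM, against 1164, 1219, 1120 and 1124 untreated. It fell by 0.67 (SE 0.08, adjusted p = 1.07e-05). At 100 µM, with 1189, 1232, 1141 and 1129, it overlapped the untreated arrays, and 1000 µM was lower than 100 µM by a log2 difference of -0.69 (adjusted p = 2.21e-05). Probe set 1428225_s_at had 289, 270, 240 and 259 at 1000 µM and 553, 414, 422 and 447 untreated, and fell by 0.79 (SE 0.15, adjusted p = 0.00181). The remaining probe sets, 1428224_at and 1449039_a_at, differed by 0.45 and 0.32 and were not called. The rise of 1420093_s_at and both falls were called in every alternative fit run.

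Hnrnpa2b1 encodes a core hnRNP that also carries mRNAs to distant parts of cells. Its brightest probe set, 1420365_a_at, had 5466, 5042, 5430 and 4957 at 1000 µM, against 4372, 4426, 4595 and 4304 untreated. The groups lay apart, by 0.24 (SE 0.07, adjusted p = 0.0416), and leaving out any 1 of the 8 arrays ended the call (adjusted p = 0.052 to 0.109). With quantile normalization the difference was 0.07 (0.678), and without a filter and in the 2 groups alone the call ended as well (0.0744 and 0.0509). Probe set 1433830_at had 496, 421, 341 and 354 at 1000 µM and 896, 883, 823 and 834 untreated. It fell by 1.11 (SE 0.13, adjusted p = 1.16e-05), with every 1000 µM array below every other array of the series, and no alternative fit ended the call. Its 2 other probe sets differed by -0.09 and -0.01. Hnrnpa1, which represses many exons, had 932, 823, 764 and 849 at 1000 µM and 941, 1247, 1301 and 1310 untreated at probe set 1436549_a_at, and fell by 0.50 (SE 0.13, adjusted p = 0.0171). Dropping untreated array 4 or array 3 at 1000 µM ended that call (adjusted p = 0.0535 to 0.057), as did quantile normalization (0.0547) and median centring, where the difference was -0.30 (0.181). Its brighter probe set 1455305_x_at differed by 0.11. Hnrnpul2 1434551_at, outside the rule for naming genes, fell by 0.30 (SE 0.09, adjusted p = 0.0305), a call lost with untreated array 2 or 4, or array 2, 3 or 4 at 1000 µM, dropped (0.0593 to 0.0966), with median centring (-0.09, 0.555), with quantile normalization (-0.15, 0.404) and in its 2 groups alone (0.0744). The brightest member probe set, Hnrnpab 1455855_x_at, had 6344, 5472, 6231 and 5710 at 1000 µM and 4523, 5721, 5797 and 5136 untreated, with overlap and no call.

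Luc7l2 encodes a protein of the U1 snRNP related to yeast Luc7, which takes part in the choice of 5' splice sites. Of its 5 tested probe sets 3 fell. Probe set 1436767_at had 121, 105, 116 and 98 at 1000 µM, against 372, 352, 309 and 237 untreated, and fell by 1.51 (SE 0.23, adjusted p = 0.00022), the lowest value of any member. Its 100 µM arrays, at 493, 268, 282 and 276, overlapped the untreated ones. Probe set 1436766_at had 200, 197, 157 and 161 at 1000 µM and 459, 331, 283 and 320 untreated (-0.95, SE 0.28, adjusted p = 0.0362). Probe set 1436165_at, outside the naming rule, fell by 0.44 (SE 0.08, adjusted p = 0.00204), which median centring ended (-0.24, 0.107). The brightest, 1423251_at, had 963, 950, 982 and 983 at 1000 µM and 1031, 922, 976 and 1055 untreated, with overlap (-0.04, adjusted p = 0.834). The call of 1436766_at was lost with untreated array 1, 2 or 4, or array 2, 3 or 4 at 1000 µM, dropped (adjusted p = 0.0607 to 0.11), and with median centring (0.0808), quantile normalization (0.121) and no filter (0.0534); the call of 1436767_at ended in no alternative fit. The paralogs Luc7l and Luc7l3 had 5 probe sets, none called. Luc7l3 1424802_a_at differed by 0.24 (adjusted p = 0.14), and passed in replicates 2 to 4 alone (0.00693) and with median centring (0.0121).

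Among the Rbm genes, Rbm26 encodes a zinc-finger protein that in human cells belongs to a nuclear RNA decay pathway. Its probe set 1426803_at had 174, 138, 144 and 153 at 1000 µM, against 384, 333, 296 and 328 untreated, and fell by 1.14 (SE 0.12, adjusted p = 5.31e-06), the lowest adjusted p of any member. At 100 µM it had 275, 320, 290 and 260, which overlapped the untreated arrays. Probe set 1426419_at had 344, 311, 239 and 260 at 1000 µM, against 572, 423, 434 and 389 untreated, and its 100 µM arrays had 283, 285, 284 and 289. Both doses lay below every untreated array, by -0.66 each, which passed at 1000 µM (SE 0.16, adjusted p = 0.0139) and not at 100 µM (adjusted p = 0.0535). At 100 µM it passed with the replicate block (0.00347) and in replicates 2 to 4 alone (0.00948). Dropping untreated array 1 or array 3 at 1000 µM ended the call at 1000 µM (0.0522 to 0.0536), as did median centring (0.0834) and quantile normalization (0.0756). The difference between these probe sets was not called.

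Rbm5 encodes a splicing regulator that in human cells acts on transcripts of apoptosis genes. Probe set 1456262_at had 78, 60, 35 and 76 at 1000 µM, against 139, 140, 120 and 155 untreated, and fell by 1.22 (SE 0.24, adjusted p = 0.0029). None of its 1000 µM arrays reached the filter level, so this fall ends in the dim range of the arrays. Probe set 1438069_a_at had 50, 77, 100 and 96 at 1000 µM and 147, 147, 136 and 121 untreated, with 2 of its 1000 µM arrays at the filter level (-0.82, SE 0.18, adjusted p = 0.00633). Quantile normalization ended this call (0.0641), as did the fit of its 2 groups alone (0.0607). The brightest, 1452186_at, had 1039, 1000, 934 and 930 at 1000 µM, against 1514, 1305, 1217 and 1181 at 100 µM. Untreated arrays had 1327, 1136, 1162 and 1152. It was lower at 1000 than at 100 µM (-0.41, SE 0.11, adjusted p = 0.0288) and was not called against untreated (-0.29, adjusted p = 0.0836), where it passed with the replicate block (0.00947) and in replicates 2 to 4 alone (0.02). Dropping array 1 or 2 at 100 µM, or array 2, 3 or 4 at 1000 µM, ended the call against 100 µM (0.061 to 0.102), as did median centring (0.186).

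Rbm39, a relative of the large U2AF subunit and a splicing coactivator, has 9 tested probe sets. One of these, 1420982_at, had 418, 664, 471 and 679 at 1000 µM, against 290, 342, 281 and 328 untreated, and its 100 µM arrays had 603, 410, 422 and 477. The difference of 0.82 at 1000 µM (SE 0.22, adjusted p = 0.0207) was the highest of any member, and at 100 µM the 0.61 was not called (adjusted p = 0.247). The other 8 ran from -0.35 to 0.41 and were not called. Rbm12 1416928_at had 504, 401, 389 and 343 at 1000 µM and 615, 541, 516 and 614 untreated, and fell by 0.49 (SE 0.10, adjusted p = 0.00319), which was not called with median centring (-0.29, 0.0706). Rbmx, an X-linked hnRNP, had 131, 106, 107 and 114 at 1000 µM and 168, 140, 178 and 149 untreated at probe set 1426863_at (-0.47, SE 0.14, adjusted p = 0.0301). Rbms1 1434005_at, outside the naming rule and of a gene known for binding single-stranded nucleic acids rather than for splicing, fell by 0.33 (SE 0.09, adjusted p = 0.019). Dropping untreated array 1, or array 2 or 4 at 1000 µM, ended the Rbm39 call (0.0503 to 0.0717). The Rbmx call was lost with untreated array 1 or 3, or array 2, 3 or 4 at 1000 µM, dropped (0.0652 to 0.0841), and the Rbms1 call with array 3 at 1000 µM dropped (0.0776). Median centring ended both (-0.27 with 0.23 for Rbmx, -0.13 with 0.446 for Rbms1), and Rbmx was also not called with quantile normalization (-0.26, 0.356), in its 2 groups alone (0.0793) or without a filter (0.0597).

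Sf3b5 encodes a small subunit of the SF3b complex. Its probe set 1451185_at had 1352, 1084, 1027 and 1077 at 1000 µM, against 884, 824, 864 and 976 untreated, without overlap (0.35, SE 0.10, adjusted p = 0.0279). Its call was lost with untreated array 1, 2 or 3, or array 1 at 1000 µM, dropped (adjusted p = 0.0526 to 0.0876), and in replicates 2 to 4 alone (0.0658) and the 2 groups alone (0.0575). In the Prpf family, Prpf8, Prpf31 and 8 further genes had differences from -0.29 to 0.15, none called by limma. At an unadjusted p under 0.05, 2 of its probe sets were lower, against 3761 of all 14379 tested in either direction. With the replicate block 1 was called lower.

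Where a gene has several probe sets, each other probe set was set against the brightest one by fitting the difference of their log2 signals across the 20 arrays. Of 104 such pairs in 47 member genes, 6 changed unequally at 1000 µM (limma, adjusted over 5112 pairs of all genes), which is 5.77% against 0.841% of all pairs. By gene this was 5 of 47 member genes (10.6%) and 38 of 3300 genes in all (1.15%). These shares were not matched for signal or spread either. In each of the 6 pairs the other probe set was lower relative to the brightest. The direction of the 43 pairs called over all genes is not given, so this direction is not shown to be particular to the members. The difference of differences, other minus brightest, was -1.21 for Srsf3 1438215_at (adjusted p = 0.000171), -1.03 and -1.15 for Hnrnpdl 1424252_at and 1428225_s_at (1.38e-06 and 0.0011), -1.34 for Hnrnpa2b1 1433830_at (3.42e-05), -1.47 for Luc7l2 1436767_at (0.000801) and -0.93 for Rbm5 1456262_at (0.0439). With the replicate block 6 member genes were called, and leaving out single arrays gave 4 or 5. At 100 µM 0 of the 104 pairs were called, against 0.0391% of all pairs. Which exons or transcript ends each probe set reads was not analysed here. The 5 genes have a median of 14 RefSeq transcripts (2 to 26), against 4 (1 to 43) for the other 42 genes, and the count of pairs in a gene grows with its probe sets.

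**Figure D3:**
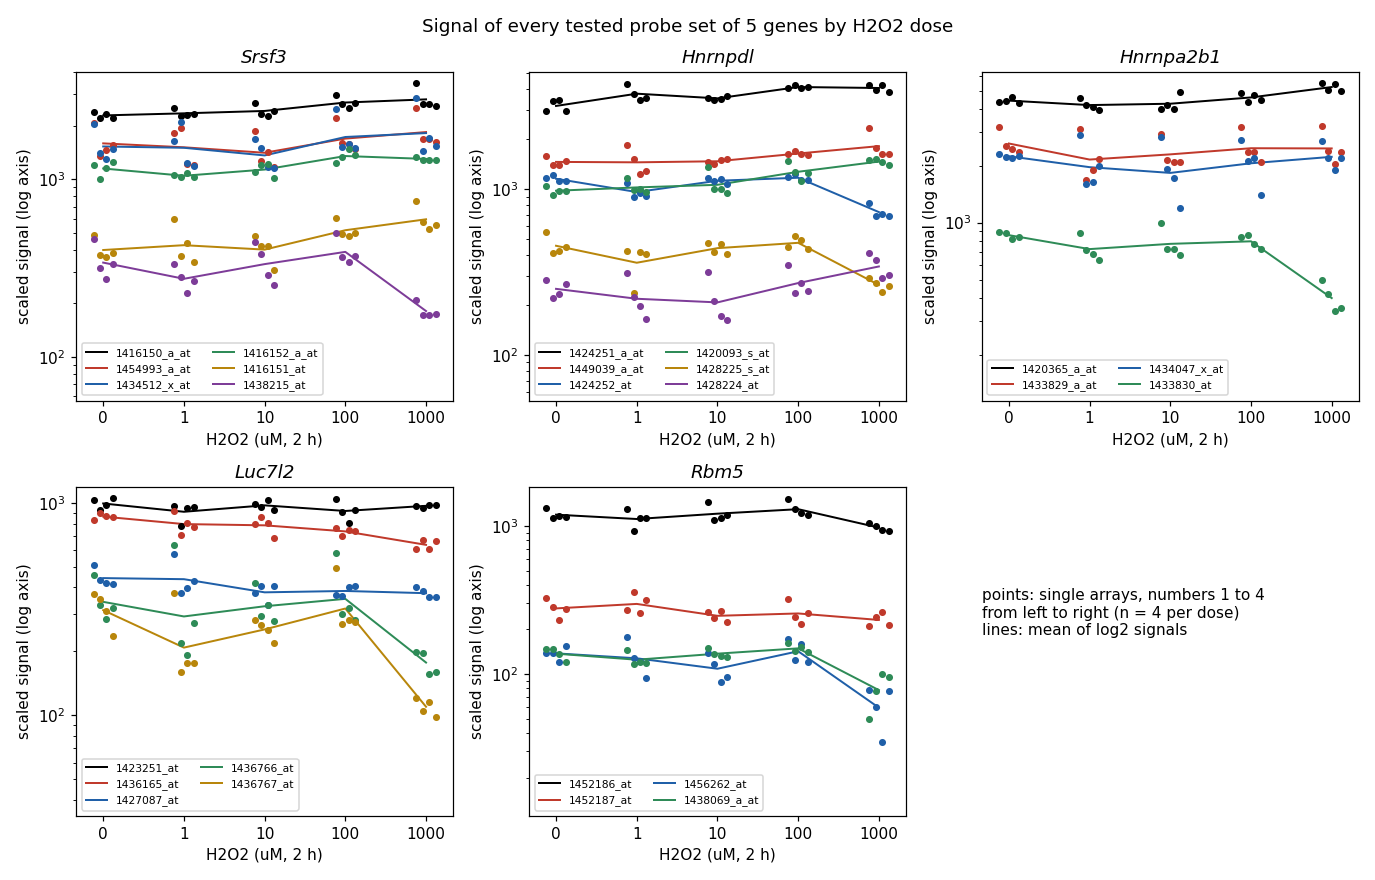
Scaled signal (log axis) of every tested probe set of Srsf3, Hnrnpdl, Hnrnpa2b1, Luc7l2 and Rbm5 against H2O2 dose, with 1 point per array (4 per dose) and lines through the means of log2 signals. The probe sets called unequal to the brightest drop at 1000 µM. Other lower-lying ones do not all drop: Srsf3 1416151_at and Hnrnpdl 1420093_s_at climb. The uppermost line of each gene other than Rbm5 stays level or climbs.

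**Figure D4:**
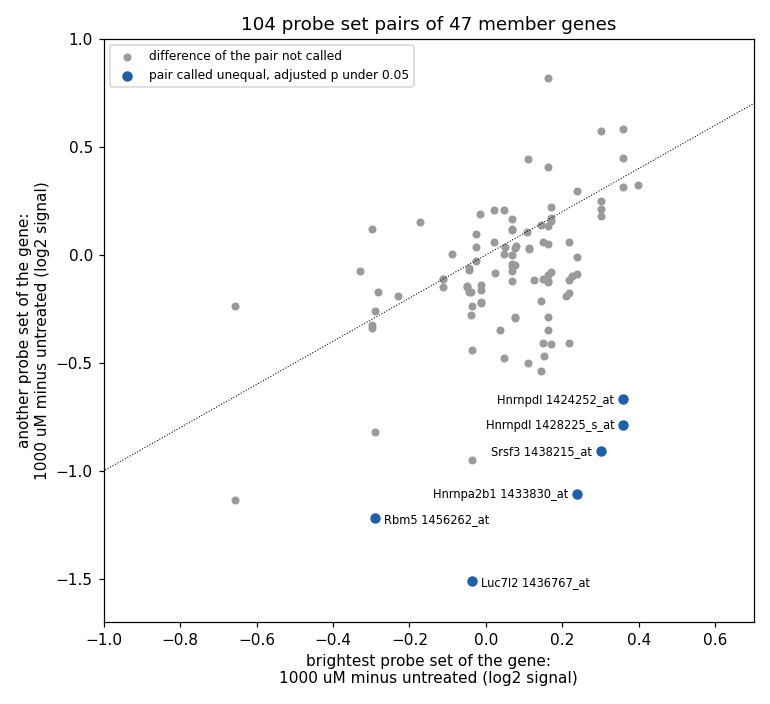
Log2 difference at 1000 µM from untreated of each further probe set (vertical) against that of the brightest probe set of the same gene (horizontal), for 104 pairs of 47 member genes; the dotted line marks equal change. The 6 labelled pairs, called unequal, lie below the line, at -1.47 to -0.93 relative to it.

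Affymetrix names mark how specific a probe set is: a plain ending in _at is unique to its target, _a_at covers several transcripts of a gene, and _s_at and _x_at may read other genes. At 1000 µM, plain members had 4 calls higher and 14 lower of 103, _a_at members 5 and 2 of 41, _s_at members 1 and 1 of 15 and _x_at members 0 and 0 of 20. Over all tested probe sets, plain ones were called higher in 1.89% and lower in 9.95%, and _a_at ones in 3.25% and 6.39%. For _s_at ones the shares were 2.09% and 8%, and for _x_at ones 5.5% and 2.48%. The record from which a probe set was designed was a curated RefSeq mRNA for 4 of the 10 rises, 2 of the 17 falls and 35 of all 179 members.

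Of the 5 genes whose brightest probe set rose, 4 have a start in the RefSeq promoter table of build GRCm38.p6. The 250 bases before it are shown to let the control regions of these 4 genes be compared, the first of 2 listed starts for Hnrnpa2b1. In each of the 4, quantile normalization ended the 1000 µM call of the brightest probe set (limma adjusted p = 0.0552 to 0.678). Other probe sets of Srsf3, Hnrnpdl and Hnrnpa2b1 were called lower at that dose. Genes and motifs were chosen with results known. Capitals mark matches, on either strand, to 6 motifs: the TATA box, searched as TATAAA; the box searched as CCAAT, which reads ATTGG on the other strand; the GC box, searched as GGGCGG; the site of ETS factors, searched as CCGGAAG; the cyclic AMP response element, searched as TGACGTCA; and the antioxidant response element, searched as TGACNNNGC.
Srsf3, chr17:29032410-29032659, plus strand: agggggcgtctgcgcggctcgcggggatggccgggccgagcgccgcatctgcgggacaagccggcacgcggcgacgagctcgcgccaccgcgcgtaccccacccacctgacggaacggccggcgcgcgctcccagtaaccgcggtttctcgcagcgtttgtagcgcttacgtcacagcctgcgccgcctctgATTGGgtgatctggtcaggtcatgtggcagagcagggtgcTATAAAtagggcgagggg
Tra2b, chr16:22266006-22266255, minus strand: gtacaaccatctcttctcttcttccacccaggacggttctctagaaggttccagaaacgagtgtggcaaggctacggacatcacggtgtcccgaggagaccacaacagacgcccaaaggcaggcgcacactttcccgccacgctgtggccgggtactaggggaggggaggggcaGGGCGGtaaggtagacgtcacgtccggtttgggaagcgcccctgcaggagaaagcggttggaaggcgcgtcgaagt
Hnrnpdl, chr5:100039223-100039472, minus strand: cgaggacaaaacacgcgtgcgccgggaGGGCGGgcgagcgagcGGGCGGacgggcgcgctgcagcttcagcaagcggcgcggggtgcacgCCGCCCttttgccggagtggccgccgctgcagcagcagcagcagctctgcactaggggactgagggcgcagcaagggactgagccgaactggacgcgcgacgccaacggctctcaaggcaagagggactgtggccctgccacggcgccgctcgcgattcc
Hnrnpa2b1, chr6:51469895-51470144, minus strand: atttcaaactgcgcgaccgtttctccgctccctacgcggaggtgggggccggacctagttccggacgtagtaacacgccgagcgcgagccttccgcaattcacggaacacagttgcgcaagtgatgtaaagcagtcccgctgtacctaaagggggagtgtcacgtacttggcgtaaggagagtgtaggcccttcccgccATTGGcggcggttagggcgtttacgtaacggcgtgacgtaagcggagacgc
Srsf3 holds 1 TATA box and 1 CCAAT box, Tra2b 1 GC box, Hnrnpdl 3 GC boxes and Hnrnpa2b1 1 CCAAT box, and none of the 4 windows holds the letters of the other motifs. Of 32851 windows in the table, 12.4% hold TATAAA, 33.8% CCAAT, 32.7% GGGCGG, 6.91% CCGGAAG, 1.55% TGACGTCA and 10.2% TGACNNNGC. Of 88 windows of 68 member genes the shares were 6.82%, 48.9%, 58%, 23.9%, 1.14% and 18.2%, at a median GC content of 60.6% against 52.4% in the table. A match is a run of letters and no evidence of binding.

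Genes of the splicing machinery outside these symbol families were described from 6 lists. Among SR protein kinases and nuclear speckle proteins, 1 of 72 probe sets rose and 13 fell at 1000 µM, with a median of -0.23, against 2.46% higher, 8.48% lower and a median of -0.07 over all tested. The list also counts the noncoding RNAs Malat1 and Neat1 and the paraspeckle proteins Nono, Sfpq and Pspc1. Neat1 1428083_at was 1 of the 13 falls (-0.67, limma adjusted p = 0.00116). Clk2, a kinase that phosphorylates SR proteins, had 208, 215, 211 and 180 at 1000 µM, against 498, 471, 489 and 477 untreated. Its 100 µM arrays had 323, 373, 325 and 369. It fell by 1.25 at 1000 µM (SE 0.10, adjusted p = 1.36e-07) and by 0.48 at 100 µM (adjusted p = 0.0165), with the 3 groups fully apart. In the main fit the Clk2 call at 100 µM was the single one in any list at that dose. Dropping untreated array 3, or array 1 or 3 at 100 µM, ended it (adjusted p = 0.0506 to 0.0645). With the replicate block, 1 probe set of spliceosomal helicases and 2 of other sequence-specific regulators were called lower at 100 µM as well. Replicates 2 to 4 alone gave 2 lower in the kinase and speckle list and 1 among the other regulators. Sfswap (1438675_at, -0.83, adjusted p = 0.0098), the kinase Dyrk1a (1426226_at, -0.81, 0.000924) and the speckle protein Thrap3 (1452125_at, -0.81, 0.000496) fell at 1000 µM as well, and Nono 1415820_x_at rose (0.23, 0.0296). Dyrk1a 1428299_at was also called lower (-0.63, 0.00413). Among their probe sets not called were Sfswap 1424997_at (-0.16, 0.648) and 1438674_a_at (-0.70, 0.0918), Dyrk1a 1451977_at (-0.24, 0.278) and Thrap3 1427408_a_at (-0.23, 0.297). Nono 1448103_s_at and 1431239_at differed by 0.23 and -0.48, neither called. The Nono call was lost with untreated array 1 or 2, or array 2, 3 or 4 at 1000 µM, dropped (0.0591 to 0.0861). The signals of Sfswap 1438675_at at 1000 µM, 76.4, 72.8, 86.8 and 81.5, reached the filter level on 1 of 4 arrays, so its fall ends in the dim range. Quantile normalization ended its call (0.0721), as it did that of Nono 1415820_x_at (0.146). In the 2 groups alone that Nono probe set was not called either (0.0591). Median centring ended the Clk2 call at 100 µM (0.12). The counts of the list were 3 higher and 21 lower with the replicate block, 1 and 23 in replicates 2 to 4 alone, 3 and 10 with median centring and 0 and 8 with quantile normalization.

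Of 36 probe sets of snRNP, Sm and LSm proteins, the core of the spliceosome, 2 rose and 1 fell at 1000 µM, with a median of 0.12. Over all tested, 2.46% rose and 8.48% fell, with a median of -0.07. Snrpe 1451294_s_at had 6319, 5852, 5944 and 5967 at 1000 µM and 4322, 5161, 5373 and 4976 untreated (0.28, SE 0.07, adjusted p = 0.0183). Snrpg 1448358_s_at rose by 0.28 (adjusted p = 0.0354) and Snrnp48 1437180_at fell by 0.63 (0.0251). Snrnp48 had 77.3, 91.5, 109 and 132 at 1000 µM, against 124, 154, 181 and 170 untreated, with overlap. At 1000 µM it reached the filter level on 3 arrays, so its fall ends near the dim range. No other probe set of Snrpg or Snrnp48 was called. The Snrpe call was lost with untreated array 1 dropped (0.0587), in its 2 groups alone (0.0547) and with quantile normalization, where the difference was 0.10 (0.312). The Snrpg call was lost with untreated array 1, 2 or 4, or array 2, 3 or 4 at 1000 µM, dropped (0.0569 to 0.0987), and that of Snrnp48 with untreated array 2, 3 or 4, or array 1 or 2 at 1000 µM, dropped (0.0519 to 0.0756). Snrnp48 also lost it with median centring (0.11), quantile normalization (0.208) and its 2 groups alone (0.082), and Snrpg with quantile normalization (0.17, 0.172) and without a filter (0.0559). This list had 5 higher and 1 lower with the replicate block and in replicates 2 to 4 alone, 13 and 0 with median centring, and 1 and 0 with quantile normalization. The branch point list had 0 calls in 12 probe sets (median -0.03, limma). At an unadjusted p under 0.05, 1 was higher, against 3761 of all 14379 tested in either direction. The replicate block gave 2 higher and median centring 4.

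Spliceosomal helicases and their partners had 0 rises and 2 falls in 56 probe sets (median -0.03), of Dhx8 1426629_at (-0.50, adjusted p = 0.00699) and Cwc22 1438278_a_at (-0.48, 0.0213), and 9 higher and 0 lower with median centring, 0 and 3 in replicates 2 to 4 alone, and 0 and 1 with quantile normalization. Both of these calls ended with median centring (0.0621 and 0.128) and quantile normalization (0.0741 and 0.192). Over all tested, 2.46% rose and 8.48% fell at 1000 µM, which is the background for each list of this paragraph. Other sequence-specific regulators had 1 rise and 6 falls in 68 (median -0.12). That list had 4 and 12 with the replicate block, 5 and 12 in replicates 2 to 4 alone, 10 and 0 with median centring, and 1 and 3 with quantile normalization. Ybx1 1418624_at rose by 0.32 (adjusted p = 0.0338), while Rbfox2 1418247_s_at fell by 0.64 (0.035), Celf1 1425932_a_at by 0.64 (0.0396), Tardbp 1428467_at by 0.59 (0.0344) and Syncrip 1426402_at by 0.52 (0.00154). A further Celf1 probe set, 1427413_a_at, fell by 0.48 (SE 0.08, adjusted p = 0.000931), with 600 to 670 at 1000 µM and 824 to 896 untreated. No other probe set of Rbfox2, Celf1, Tardbp or Syncrip was called. Celf1 below stands for 1425932_a_at, as alternative fits are not given for 1427413_a_at. Rbfox2 and Celf1 are known regulators of muscle splicing. Without single arrays the Ybx1, Rbfox2, Celf1 and Tardbp calls ended in 5, 6, 5 and 6 of 8 fits (adjusted p up to 0.114, 0.112, 0.134 and 0.112), and without untreated replicate 1 the Celf1 difference was -0.39. Quantile normalization ended these 4 calls (0.134 to 0.294), and median centring those of Rbfox2, Celf1, Tardbp and Syncrip (0.052 to 0.168). Testing without a filter ended the first 4 as well (0.0528 to 0.0594), and the 2 groups alone those of Ybx1 and Celf1 (0.0829 and 0.113). Those leave-one-out fits left out, for each of the 4, 1000 µM replicates 2, 3 and 4 and untreated replicates 1 and 2, and for Rbfox2 and Tardbp also untreated replicate 4. The Cwc22 call was lost with untreated array 1 or 3, or array 2 or 3 at 1000 µM, dropped (0.0568 to 0.0733), and in its 2 groups alone (0.0706). Exon junction and nonsense-mediated decay genes had 0 rises and 1 fall in 6 probe sets, of Smg8 1427737_a_at (-0.34, 0.0411), a call lost with untreated array 1, 2 or 4, or array 1, 2 or 4 at 1000 µM, dropped (0.053 to 0.135). Smg8 was also not called with median centring (-0.14, 0.415), quantile normalization (-0.15, 0.453), its 2 groups alone (0.105) or no filter (0.0794), and the list had 3 falls in replicates 2 to 4 alone.

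**Figure D5:**
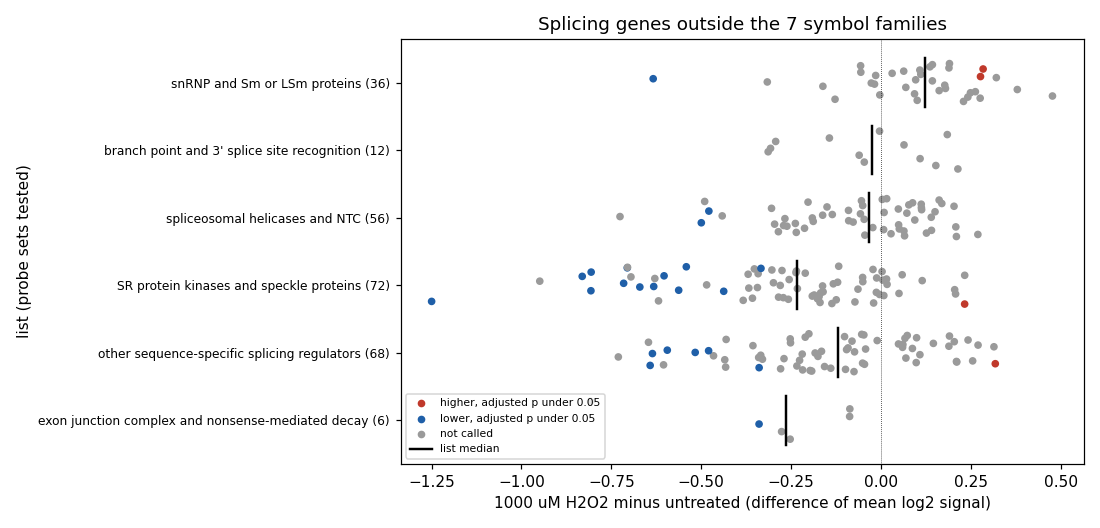
Difference of mean log2 signal, 1000 µM minus untreated, for every tested probe set of 6 lists of splicing genes outside the symbol families (points), with list medians as lines and calls in colour. List medians run from -0.26 (exon junction and decay) to 0.12 (snRNP proteins), and the lowest point is Clk2.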

How the data were processed

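Groups, doses and replicate numbers came from the sample titles. The deposited intensity values are linear Affymetrix Microarray Suite 5.0 signals, 1 per probe set, per the design text; the authors' difference calls were not used here. Trimmed means (2% off each end) lay between 500.1 and 500.2 on all arrays, which shows a global scaling, and medians between 150.9 and 185.1. Precision is set by the number of arrays. Each was read as 1 channel, after the single stain of the design text.

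Signals were brought to an equal trimmed mean, floored at 1 and taken to log2. Of 22690 probe sets 64 controls were left out, and 14379 passed the filter (level 77.7 to 106.5). limma 3.58.1 (R 4.3.3; lmFit, then eBayes with its trend option; residual degrees of freedom 15, prior 5.33) fitted the 5 doses together, with Benjamini-Hochberg adjustment over all tested probe sets of a comparison and calls at adjusted p under 0.05. Tests are two-sided, on 4 arrays per group, and errors (SE) are from that fit. Comparisons with untreated share the same 4 untreated arrays. The script was tested on simulated data.

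Same-numbered arrays deviated from their group means together: over the 1000 µM, 100 µM and untreated groups every same-numbered pair correlated above 0.1 (0.115 to 0.513), so the fit with the number as a block, which leaves out the 10 µM array with no number, is given beside results of these groups whose call or count it changes. Pairs that involve 1 or 10 µM went down to 0.00993. No label says what a number stands for.

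Symbols are those of the platform annotation, and all 196 equal those in the RefSeq table of GRCm38.p6. Arrays are named by dose and replicate number. Signals of different probe sets are not compared as levels; "brightest" means the highest mean signal. Members, gene lists, motifs and tests were chosen with earlier results of these data known. Named were up to 14 called members each way against untreated and 8 each way between 1000 and 100 µM, the brightest probe set of each Srsf, Tra2 and Luc7l gene, up to 6 genes with unequal probe sets, up to 4 called genes each way in a list, and members at the filter's edge. Alternatives were median centring, quantile normalization, a floor of 50, no filter, a 60th percentile filter, the block, a term for arrays numbered 1, replicates 2 to 4 alone, array weights, the compared groups alone, the crossed rule of the design text (every dose array beyond every control, mean ratio over 1.75), and leaving out each array.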

Additional observations from a re-analysis of the deposited data

Results flagged for a closer look

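In the groups of 4 arrays, 39 named member probe sets at 5 doses gave 195 groups, and in 21 of them 1 array lay further from the other 3 than Dixon's 95% limit, where chance alone gives about 1 in 20. Of the 21, 17 fell on arrays numbered 1. All values are scaled signals. At 1000 µM, replicate 1 had 3460 for Srsf3 1416150_a_at (other 3 arrays 2580 to 2659), 208 for Srsf3 1438215_at (171 to 175), 436 for Srsf11 1427269_at (356 to 368), 2820 for Srsf1 1434972_x_at (2398 to 2457), 5770 for Srsf2 1427504_s_at (4032 to 4207), 2660 for Srsf6 1448454_at (2140 to 2196) and 1030 for Srsf10 1423982_at (770 to 784). Each of these was the highest of its group.

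At 100 µM, replicate 1 was high for Luc7l2 1436767_at at 493 (268 to 282) and Srsf2 1427504_s_at at 4860 (4072 to 4142), and low for Srsf9 1417727_at at 1540 (1763 to 1804), while replicate 2 was low for Rbm12 1416928_at at 448 (463 to 465). At 10 µM, replicate 1 was high for Hnrnpdl 1420093_s_at at 1350 (947 to 998), Luc7l 1428255_at at 777 (517 to 552) and Tra2b 1427432_a_at at 2140 (1605 to 1644). At 1 µM, replicate 1 was high for Luc7l2 1436767_at at 376 (161 to 177), and replicate 2 was low for Hnrnpdl 1428225_s_at at 236 (404 to 424) and Luc7l2 1423251_at at 777 (945 to 967). In untreated myotubes, replicate 1 was low for Hnrnpa1 1436549_a_at at 941 (1247 to 1310) and high for Rbm5 1452186_at at 1330 (1136 to 1162) and Srsf3 1416151_at at 486 (367 to 382), and replicate 2 was low for Srsf11 1427269_at at 237 (289 to 299).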

How the results depend on the processing

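Pairs of counts here are member probe sets called higher and lower. Shares over all tested are not given for these settings, so the counts do not set members apart from other genes. At 1000 µM against untreated (10 and 17), median centring gave 34 and 8, quantile normalization 6 and 10, the replicate block 16 and 26, the term for arrays numbered 1 16 and 25, replicates 2 to 4 alone 16 and 25, array weights 24 and 32, and the crossed rule 1 and 7; leaving out single arrays gave 3 to 8 and 10 to 18. At 100 µM (1 and 0), these settings gave 2 and 0, 2 and 0, 3 and 1, 5 and 2, 3 and 2, 6 and 5, and 0 and 0, the 60th percentile filter 1 and 1, the 2 groups alone 0 and 1, and single arrays left out 1 and 0. Between 1000 and 100 µM (1 and 9), they gave 5 and 8, 0 and 10, 5 and 13, 9 and 13, 7 and 12, 20 and 21, and 0 and 8, no filter 0 and 9, the 60th percentile filter 2 and 8, and single arrays left out 0 to 3 and 8 to 9. At 10 µM array weights gave 1 call; at 1 µM they gave 3 and replicates 2 to 4 alone 4, against 0. The F-test's 22 became 41 with the block, 53 with the array term, 52 in replicates 2 to 4, 65 with array weights and 13 to 29 with single arrays left out. The 5 genes with unequal probe sets became 12 with array weights and 4 or 5 with single arrays left out.

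Of the 27 calls at 1000 µM, 27 stood among the 42 calls with the block, 25 among the 41 in replicates 2 to 4, 18 among the 42 with median centring, 15 among the 16 with quantile normalization and 26 among the 56 with array weights. No named value that was called changed its sign in any setting; a sign change of a value called in neither fit was not counted. Of the 44 named values called at 1000 µM, 12 kept their call in every fit that tested them and 32 lost it in at least 1. The crossed rule is no such fit and was not counted here. A probe set that the 60th percentile filter removed was not counted as a lost call either. Unequal pairs were not refitted without a filter or with the 60th percentile one. Signal near the filter level limits Rbm5 1456262_at, whose 1000 µM arrays all lie below it.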
